A study of Mus musculus with 47 samples.

Results

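The hippocampus of young female mice was compared 1 day after the induction of sepsis with that of young female controls. The members are the 11619 of 28032 genes in the deposited table whose mean over the 4 libraries of young females on day 1 and the 4 libraries of young female controls was at least 5 CPM, the reads of a gene scaled to library size. They come from a series of 47 libraries in 12 groups of C57BL/6 mice, set by age, sex and time after sepsis, with poly(A) RNA of a whole hippocampus of 1 mouse in each library. Young animals were 3 to 5 months old. Septic mice of both sexes and ages underwent cecal ligation and puncture (CLP), in which the cecum is tied off and pierced so that gut bacteria enter the abdomen. They were given buprenorphine, an opioid for pain, and imipenem, an antibiotic, and were restrained in a cone for 1 h before tissue was taken on day 1. Mice taken on day 4 had more doses of imipenem and were restrained on more days. Controls were taken straight from the home cage and had no surgery or anesthesia before that day, so the effects of sepsis cannot be told apart from those of surgery, anesthesia, the drugs and restraint. No allele or transgene is given for any of the mice.

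Sepsis is a response of the whole body to infection. Cytokines and bacterial products in the blood act on the endothelium of brain vessels, and endothelial cells, astrocytes and microglia answer through NF-kB and through the interleukin-6 family, whose receptors signal by STAT3 and are held in check by SOCS3. Illness and restraint also raise corticosterone, which enters the brain and acts through the glucocorticoid receptor, a transcription factor that is abundant in the hippocampus. Oligodendrocytes make the myelin sheath and, with astrocytes, much of the cholesterol of the brain, whose enzymes are controlled together by sterol-regulated transcription factors. The dentate gyrus of the hippocampus keeps a small pool of neural stem cells that form new granule neurons.

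The responses to corticosterone and to sterols pass through short DNA motifs, and the promoters of 3 genes described here are shown because a motif of each kind was found in them. The sequences are from RefSeq on GRCm38.p6, 5′ to 3′ along the gene, from 250 bases before the annotated start to 50 bases after it. Capitals mark the motif. For the glucocorticoid receptor it was the half-sites AGAACA and TGTTCT with any 3 bases between them and at most 2 mismatches, which reads alike on both strands, and for the sterol-regulated factors it was TCACNCCAC on either strand with no mismatch. Each list was searched for its own motif, and overlap between the motifs was not looked for. The windows were chr10:21993640-21993939 on the plus strand for Sgk1, 1 of 6 annotated starts of that gene, chr7:126676369-126676668 on the minus strand for Sult1a1, and chr13:119690101-119690400 on the plus strand for Hmgcs1.
Sgk1: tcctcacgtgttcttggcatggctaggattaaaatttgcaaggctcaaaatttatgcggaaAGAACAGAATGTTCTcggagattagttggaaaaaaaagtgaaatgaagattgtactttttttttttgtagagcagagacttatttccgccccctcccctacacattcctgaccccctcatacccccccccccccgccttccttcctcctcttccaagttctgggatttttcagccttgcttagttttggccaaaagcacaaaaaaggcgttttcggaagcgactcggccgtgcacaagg
Sult1a1: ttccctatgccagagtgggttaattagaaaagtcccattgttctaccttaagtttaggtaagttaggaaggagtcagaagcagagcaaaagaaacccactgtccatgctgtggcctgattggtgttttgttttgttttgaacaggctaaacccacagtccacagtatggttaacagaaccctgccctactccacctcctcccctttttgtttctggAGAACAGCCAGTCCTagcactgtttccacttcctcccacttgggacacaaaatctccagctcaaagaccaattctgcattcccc
Hmgcs1: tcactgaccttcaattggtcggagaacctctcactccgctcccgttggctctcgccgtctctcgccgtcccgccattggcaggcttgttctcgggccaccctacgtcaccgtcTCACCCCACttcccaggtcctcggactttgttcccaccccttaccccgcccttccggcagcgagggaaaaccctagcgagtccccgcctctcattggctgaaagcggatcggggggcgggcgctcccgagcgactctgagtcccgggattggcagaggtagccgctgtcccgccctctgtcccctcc
The motif began 189 bases before the start in the Sgk1 window shown, with 0 mismatches, and 34 bases before it in Sult1a1, with 2 mismatches. Another of the 6 Sgk1 windows, chr10:21985854-21986153, held a match with 2 mismatches and is not shown. In Hmgcs1 it began 137 bases before the start. The glucocorticoid motif was present in 2 of 29 glucocorticoid-induced genes with a promoter sequence (6.9%), counting any window of a gene. By the same count it was present in 2.1% of all genes with a promoter searched and in 1.22% of the tested ones. Of the 32851 single promoters searched, 1.84% held it. The sterol motif was present in 1 of 17 sterol enzymes (5.88%), in 1.44% of all genes searched, in 1.45% of the tested genes and in 1.24% of single promoters. A match is only a description of these letters, and these shares were not tested.

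The 8 libraries held an estimated 19859428 to 26867475 reads assigned to genes, so that 1 read was worth 0.0323 to 0.0412 CPM, and their depths overlapped between the groups. The subfield markers Prox1 (dentate gyrus, 37.0 to 97.2 CPM) and Fibcd1 (CA1, 163 to 269 CPM) were present in every library, and 0 of the 12 tested subfield markers were called. Control replicate 2 stood apart from the other libraries, with a first principal component of 38.8 against -13.2 to 5.62 elsewhere. Its summed mitochondrially encoded RNA was 59081 CPM against 19888 to 29799 in the other 7 libraries, its ribosomal protein genes summed to 8759 CPM against 4433 to 6656, and its Xist, the RNA of the inactive X chromosome, was 93.4 CPM against 241 to 361. Blood cell markers summed to 428 and 417 CPM in control replicates 2 and 3 and to 91.4 to 145 CPM in the other 6 libraries. The 5 blood markers that passed the filter were the 4 haemoglobins and Csf3r, a granulocyte receptor, while the T cell marker Cd3g was at 0 in all 8 libraries and the neutrophil marker S100a8 at no more than 0.617 CPM. Choroid plexus markers summed to 3452 CPM in control replicate 3 and to 3509 and 901 CPM in day 1 replicates 4 and 3, against 27.7 to 57.9 CPM in the other 5, and 0 of the 10 tested were called. The part of these differences in the results was not tested.

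**Figure D1:**
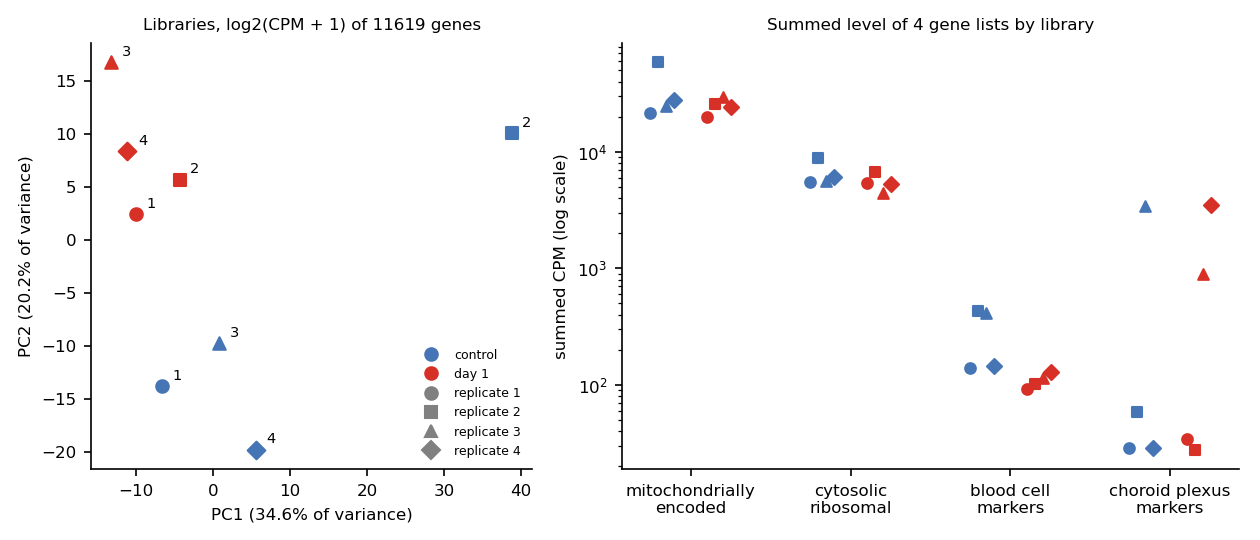
Left, the first 2 principal components of log2(CPM + 1) over the tested genes, with 34.6% and 20.2% of the variance, for 4 control (blue) and 4 day 1 libraries (red), with the replicate number given by the marker. Right, the summed CPM of 4 gene lists in each library on a log axis. Control replicate 2 lies at 38.8 on the first component and holds the highest mitochondrially encoded sum (59081 CPM), and choroid plexus markers are high in control replicate 3 and in day 1 replicates 3 and 4.

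On day 1, 551 genes were called at an unadjusted p below 0.01 (4.74% of those tested), 283 higher (2.44%) and 268 lower (2.31%). With Benjamini-Hochberg adjustment of the limma p-values below 0.05, 159 genes were called (1.37%), 106 higher and 53 lower. The log2 change is the difference between the group means of log2(CPM + 1), day 1 minus control, and its median over all tested genes was -0.02. The increases were the larger changes, since 56 of the 283 higher genes and 16 of the 268 lower genes differed by at least 1 on the log2 scale. Over all tested genes the median SD within a group was 0.178. The median change was 0.12 over the genes on the higher side and -0.12 over those on the lower side. In 1042 genes (8.97%) the 4 control and the 4 day 1 libraries did not overlap, among them 253 of the 283 higher and 242 of the 268 lower genes. Of the called genes, 272 of the higher and 251 of the lower were protein-coding. At the edge of the filter, Alg3 entered with a mean of 5.00 CPM and the macrophage lysosomal gene Cd68 stayed out with 4.999 CPM.

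Without control replicate 2 there were 419 higher and 298 lower genes (259 called after adjustment), and 264 of the 283 higher and 214 of the 268 lower genes kept their call. Without day 1 replicate 1 the count fell to 362. Leaving out control replicates 3 or 4 or any of the day 1 libraries took the adjusted count to between 70 and 96. Without the 3 libraries with choroid plexus RNA, which leaves 3 controls and 2 septic mice, 113 genes were higher and 79 lower (17 called after adjustment), and 104 of the 283 higher and 67 of the 268 lower genes kept their call. Reads from overlapping genes could be mixed, since no source used here says whether counting took the strand into account. Of the called genes, 41 higher and 37 lower shared at least 10% of their exon bases with another gene, and such genes are marked below as uncertain.

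**Figure D2:**
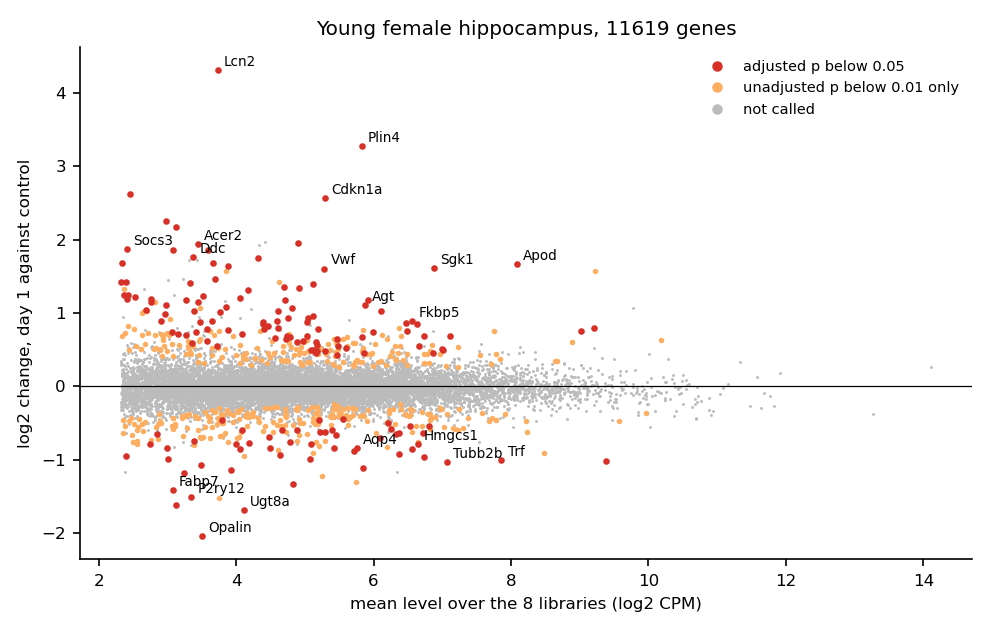
Log2 change (day 1 against control) of each of the 11619 tested genes against its mean level over the 8 libraries (log2 CPM). Red points passed the adjusted threshold (159 genes), orange points only the unadjusted p below 0.01, and grey points neither; Lcn2, Plin4 and Cdkn1a rose most among the labelled genes and Opalin fell most.

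The largest increase was that of Lcn2, the secreted iron-siderophore binding protein lipocalin 2 of the acute-phase response (chromosome 2, 32384633 to 32388252, minus strand, GRCm38). It stood at 0.793, 0.872, 0 and 0 CPM in control replicates 1 to 4 and at 25.1, 25.5, 32.3 and 21.5 CPM on day 1. The controls held it at or near 0 and all septic mice were far above them, a log2 change of 4.31 ± 0.24 (SE, 4 mice against 4, limma with Benjamini-Hochberg adjusted p = 3.42e-05). Plin4, a coat protein of lipid droplets (chromosome 17, 56100591 to 56109803), was at 29.6, 12.4, 4.02 and 4.73 CPM in controls and at 106, 102, 110 and 84.7 CPM on day 1. Its controls were spread over a wide range and still lay below every septic mouse (3.28 ± 0.47, adjusted p = 0.00622). Cdkn1a, which encodes the cell-cycle inhibitor p21 (chromosome 17, 29090976 to 29100727), rose from 12.8, 18.5, 7.94 and 5.90 CPM to 58.5, 74.2, 80.0 and 55.7 CPM. The groups did not overlap (2.57 ± 0.28, adjusted p = 0.00148). Absence of overlap was a condition of the rule that named these genes and those of the next paragraphs.

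Behind these came genes of lipid, sulfate and amine metabolism and 2 related kinases. Arrdc2, an arrestin-domain protein (chromosome 8, 70835129 to 70839720), was at 10.2 to 15.7 CPM in controls and 42.8 to 50.8 CPM on day 1 (1.95 ± 0.13, adjusted p = 0.000156). Acer2, an alkaline ceramidase, rose by 1.94 ± 0.19 (adjusted p = 0.000698). Sult1a1, a phenol sulfotransferase (chromosome 7, 126672865 to 126676432), stood at 4.07, 5.79, 4.60 and 4.17 CPM in controls and 22.0, 21.7, 15.9 and 18.5 CPM on day 1, with no overlap (1.86 ± 0.14, adjusted p = 0.000209). Ddc, the decarboxylase that makes dopamine and serotonin, was at 3.45 to 5.26 CPM in controls and at 12.2 to 18.8 CPM on day 1 (1.76 ± 0.16, adjusted p = 0.000542). Apod, a glial lipid carrier (chromosome 16, 31296192 to 31314808), was at 114, 202, 144 and 76.0 CPM in controls and at 427, 475, 391 and 337 CPM on day 1 (1.67 ± 0.25, adjusted p = 0.00800). Sgk1 and Sgk3, serum- and glucocorticoid-regulated kinases, both rose. Sgk1 (chromosome 10, 21882184 to 21999903) went from 58.1, 60.6, 47.5 and 62.4 CPM to 168, 205, 191 and 145 CPM (1.61 ± 0.13, adjusted p = 0.000268), and Sgk3 rose by 1.67 ± 0.14 (adjusted p = 0.000318). Phyhd1, a dioxygenase, rose by 1.65 ± 0.14, but 47% of its exon bases are shared with Gm28035 and its value is uncertain. The remaining gene of the rule is a predicted transcript without a name.

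Among the genes that fell, Opalin, a membrane protein of mature oligodendrocytes (chromosome 19, 41061710 to 41077113), showed the largest decrease. It was at 14.1, 18.4, 26.8 and 16.6 CPM in controls and at 3.75, 4.60, 2.95 and 3.78 CPM on day 1, with no overlap (-2.04 ± 0.19, adjusted p = 0.000489). Ugt8a, the enzyme that makes the myelin lipid galactosylceramide (chromosome 3, 125865271 to 125938619), went from 25.7, 25.6, 33.4 and 22.9 CPM to 7.74, 9.40, 6.57 and 6.75 CPM (-1.69 ± 0.14, adjusted p = 0.000318). P2ry12, the ADP receptor by which microglia sense injury (chromosome 3, 59216272 to 59262871), went from 13.8, 17.6, 14.4 and 16.1 CPM to 3.95, 4.77, 6.27 and 4.26 CPM (-1.51 ± 0.14, adjusted p = 0.000547). For these 3 genes every septic mouse was below every control, which the rule that named them required. Lpar1, a lysophosphatidic acid receptor of oligodendrocytes, fell by 1.14 ± 0.15 on the log2 scale (adjusted p = 0.00384). Itm2a, a transmembrane protein of brain endothelium, fell by 1.07 ± 0.17 (adjusted p = 0.0112), and Tubb2b, a tubulin of growing neurons, by 1.03 ± 0.13 (adjusted p = 0.00249).

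The other lower genes by the rule carry limits. Pllp, a myelin proteolipid (-1.33), Pltp, a phospholipid transfer protein (-1.11), and Trf, transferrin, made by oligodendrocytes (-1.01), share 54.2%, 19.3% and 63.5% of their exon bases with other genes. The haemoglobin genes Hba-a1 and Hba-a2 are near-identical copies. Hba-a2 was at 43.6, 99.7, 120 and 48.8 CPM in controls and at 22.0, 27.4, 25.8 and 41.0 CPM on day 1, with the highest values in the control replicates 2 and 3 whose blood markers were high. Neither passed the adjusted threshold (-1.30 ± 0.31, adjusted p = 0.0903 for Hba-a2, and -1.23 ± 0.32, adjusted p = 0.118 for Hba-a1), and Hba-a1 lost its call without day 1 replicate 3.

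**Figure D3:**
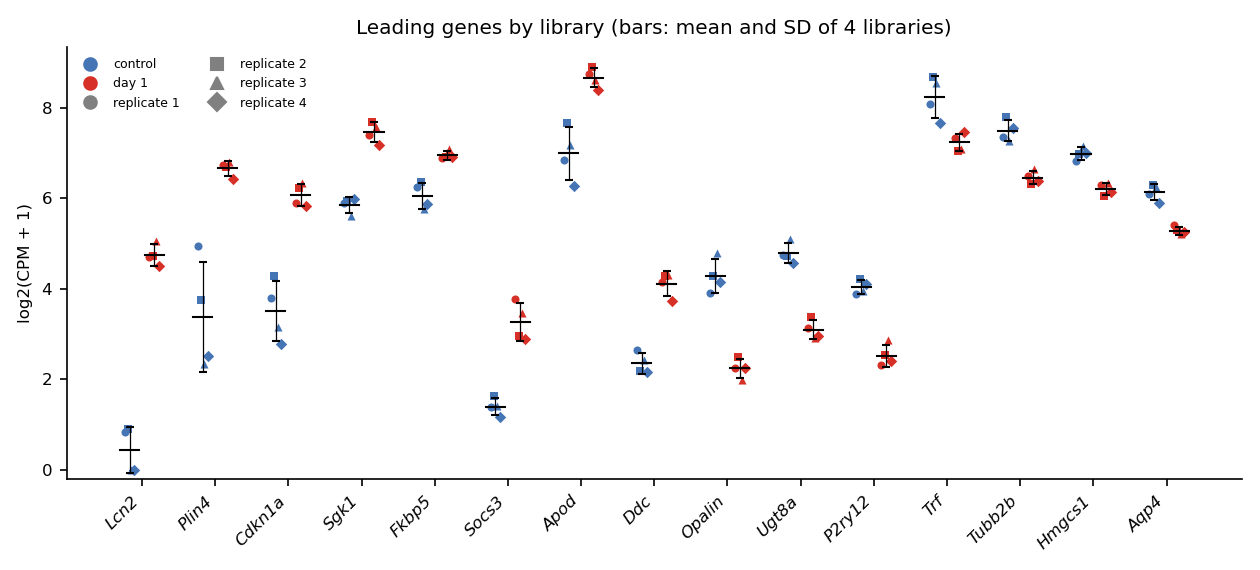
Level of 15 leading and pathway genes in each library, as log2(CPM + 1), with control in blue and day 1 in red, the replicate number given by the marker and bars for the mean and SD of 4 libraries. Control and day 1 libraries do not overlap in any of the 15, which was a condition for naming the leading genes, and the controls of Plin4 are the most spread (4.02 to 29.6 CPM).

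Genes induced by glucocorticoids rose as a group. Of 32 such genes, all of them tested, 26 were higher and 0 lower (18 after adjustment), with a median log2 change of 0.72 against -0.02 over all tested genes. The list includes the genes that the study linked to glucocorticoids and reported higher on day 1 in every age and sex group. Those members were known to rise in the same libraries, so the count and the median are no independent support. In 21 of the 26 the groups did not overlap, as in 253 of all 283 higher genes. The count was 26 without control replicate 2, 22 to 26 when any single library was left out, and 17 without the 3 libraries with choroid plexus RNA. Fkbp5, a co-chaperone that lowers the affinity of the receptor for its hormone, was at 74.9, 81.1, 53.03 and 57.5 CPM in controls and at 117, 120, 135 and 119 CPM on day 1. Every septic mouse was above every control (0.89 ± 0.14, adjusted p = 0.00963). Ddit4, an inhibitor of mTORC1, rose from 32.2 to 41.1 CPM to 69.9 to 102 CPM (1.17 ± 0.13, adjusted p = 0.00188), and the transcription factor Klf15, from 19.1 to 27.7 CPM to 39.1 to 50.5 CPM (0.96 ± 0.13, adjusted p = 0.00422). Tsc22d3, which encodes the anti-inflammatory leucine zipper protein GILZ, was at 32.3 to 43.1 CPM in controls and at 49.6 to 58.3 CPM on day 1 (0.55 ± 0.11, adjusted p = 0.0309).

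Some members of this list rose from low levels. Map3k6, a stress kinase, went from 1.86 to 4.47 CPM to 12.6 to 14.6 CPM (1.85 ± 0.21), and Angptl4, an inhibitor of lipoprotein lipase, from 2.38 to 3.39 CPM to 6.63 to 8.99 CPM (1.24 ± 0.15). Arl4d, a small GTPase, rose by 1.46 ± 0.13, the zinc-finger factor Klf9 by 0.50 ± 0.10, and Nfkbia, the inhibitor that holds NF-kB in the cytoplasm, by 1.02 ± 0.12. Hif3a, a member of the hypoxia-inducible factor family, rose by 1.57 ± 0.37 but with controls between 2.64 and 15.9 CPM and an adjusted p of 0.0872. The metallothionein Mt2 was called (0.65 ± 0.20, adjusted p = 0.184), but 73.5% of its exon bases overlap Gm45774, and it lost the call without any of 6 of the 8 libraries (control replicates 1, 2 and 4 and day 1 replicates 1, 2 and 4). Per1, the clock gene with glucocorticoid-responsive elements, was at 61.1 to 89.8 CPM in controls and at 93.4 to 121 CPM on day 1 and missed the threshold (0.40 ± 0.13, adjusted p = 0.232). Dusp1, a phosphatase of MAP kinases, had overlapping groups (-0.13 ± 0.17).

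The receptors themselves were not called. Nr3c1, the glucocorticoid receptor, was at 52.4 to 62.9 CPM in controls and at 43.7 to 51.3 CPM on day 1, without overlap (-0.28 ± 0.09, adjusted p = 0.218), and Nr3c2, the mineralocorticoid receptor, at 116 to 144 and 108 to 117 CPM (-0.19 ± 0.09, adjusted p = 0.443). Of the 10 tested receptors and steroid enzymes, 0 were called (median -0.19). The call rule also left out the 5 tested sex steroid receptors and enzymes.

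Insulin and FoxO signalling was called in part. Of 28 tested genes, 9 were higher and 1 lower (4 and 0 after adjustment), with a median of 0.12. The lower call was lost without control replicate 3 or day 1 replicates 1, 2 or 4, and without the 3 libraries with choroid plexus RNA 4 were higher and 0 lower. Txnip, which holds back glucose uptake, was at 14.02 to 25.001 CPM in controls and at 27.8 to 40.9 CPM on day 1 (0.94 ± 0.18, adjusted p = 0.0298), with 19.4% of its exon bases shared. Ucp2, a mitochondrial carrier, was at 8.84 to 25.8 and 36.3 to 50.1 CPM (1.34 ± 0.27, adjusted p = 0.0387), and Igfbp7, a secreted binder of insulin-like growth factors made by vessels, at 7.84 to 13.1 and 21.2 to 32.2 CPM (1.32 ± 0.17, adjusted p = 0.00266). Irs2, an adaptor of the insulin receptor, was at 87.0 to 121 and 133 to 149 CPM (0.44 ± 0.11, adjusted p = 0.0970). The 36 tested genes of glucose transport and glycolysis held 2 calls, both higher, where 2.44% of all tested genes were higher. These were Slc2a1, the glucose transporter of the blood-brain barrier, with 55.8 to 98.6 CPM in controls and 123 to 131 CPM on day 1 (0.84 ± 0.16, adjusted p = 0.0269), and Pdk4, the kinase that shuts the pyruvate dehydrogenase complex, with 5.44 to 7.61 and 13.6 to 18.2 CPM (1.15 ± 0.13, adjusted p = 0.00191). The glycolytic enzymes of the list were not called, and the median over the 36 genes was -0.10.

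Acute-phase genes and receptors and mediators of the interleukin-6 family rose in part. Of 32 genes, 18 passed the filter, of which 13 were higher and 0 lower (9 after adjustment), with a median of 0.75, and 10 were higher without the 3 libraries with choroid plexus RNA. Beside Lcn2, the protease inhibitor Serpina3n, an astrocyte gene in the inflamed brain, was at 51.1, 49.4, 36.7 and 42.7 CPM in controls and at 88.9, 85.8, 102 and 92.0 CPM on day 1. The groups were well apart (1.03 ± 0.12, adjusted p = 0.00188). The feedback inhibitor Socs3 was at 1.62, 2.09, 1.65 and 1.24 CPM in controls and at 12.6, 6.73, 10.002 and 6.42 CPM on day 1 (1.87 ± 0.21, adjusted p = 0.00188), with low values in all controls and higher ones in all septic mice. The receptor chains Osmr for oncostatin M (1.20 ± 0.15, adjusted p = 0.00251) and Il6ra for interleukin-6 (0.69 ± 0.12, adjusted p = 0.0218) rose. So did Il4ra for interleukin-4, a receptor outside that family (1.41 ± 0.15, adjusted p = 0.00144). Il6st, the chain shared within the interleukin-6 family, did not separate the groups (-0.11 ± 0.10). Stat3, the transcription factor below the receptors of that family, was at 40.7 to 54.8 CPM in controls and at 61.6 to 71.8 CPM on day 1 (0.45 ± 0.10, adjusted p = 0.0723). Cebpd, a transcription factor induced in the acute phase, rose by 1.02 ± 0.16 (adjusted p = 0.00972, 15% of exon bases shared). Saa3 and Lrg1, acute-phase genes under the filter, were at 0 to 0.0698 and 0.360 to 1.22 CPM in controls and at 0.247 to 6.65 and 4.53 to 10.2 CPM on day 1.

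The ligands were low in this tissue. Of 38 cytokines and chemokines, 27 were below the filter, with Il6 and Tnf at 0 CPM in all 4 controls and at up to 0.167 and 0.336 CPM on day 1, and Il1b at no more than 0.367 CPM in any library. At these levels a value rests on a few reads. Among the 11 tested, 1 was higher and 1 lower, or 2 lower without control replicates 3 or 4 or day 1 replicate 1. Over all tested genes 2.44% were higher and 2.31% lower. The alarmin Il33, an oligodendrocyte and astrocyte product released from damaged cells, fell from 31.6, 45.6, 29.6 and 26.03 CPM to 15.8, 19.6, 16.2 and 14.7 CPM, with no overlap (-0.94 ± 0.16, adjusted p = 0.0183). Icosl, a costimulatory ligand, was called higher (0.45 ± 0.11, adjusted p = 0.0979). The NF-kB list held 2 calls among 19 tested genes, Nfkbia and the receptor of tumor necrosis factor Tnfrsf1a, which was at 6.41 to 10.7 CPM in controls and at 13.9 to 17.2 CPM on day 1 (0.78 ± 0.16, adjusted p = 0.0432).

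Interferon-stimulated and antigen presentation genes held 1 call among 17 tested, where 2.44% of all tested genes were higher. It was Ifitm3, which blocks the entry of viruses (0.70 ± 0.22, adjusted p = 0.196) and which lost its call without control replicates 1 or 4 or day 1 replicates 2, 3 or 4. The interferon-induced genes Ifit3 and Ifit1, under the filter, had lower values on day 1, with Ifit3 at 3.64 to 7.15 CPM in controls and at 2.03 to 3.49 CPM on day 1, and Ifit1 at 1.30 to 2.53 and 0.453 to 1.15 CPM. They were named after their values were seen. Of 13 tested complement genes, 3 were higher and 0 lower, 0 of them after adjustment (median 0.38), and 0 were called without the 3 libraries with choroid plexus RNA. C4b, the classical pathway component made by glia, was at 67.7, 86.9, 52.9 and 40.4 CPM in controls and at 99.9, 102, 111 and 103 CPM on day 1 (0.79 ± 0.19, adjusted p = 0.0903). C3, the central component, was at 1.77, 4.00, 2.27 and 1.38 CPM and at 3.66, 4.60, 11.3 and 12.1 CPM (1.32 ± 0.36, adjusted p = 0.134). The 2 highest C3 values were in day 1 replicates 3 and 4, the septic libraries with choroid plexus RNA, and the call was lost without either of them and without control replicates 1 or 4.

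In the vessels, genes of endothelial activation moved both ways. Of 19 tested, 4 were higher and 2 lower (median 0.28), and 7 were higher without control replicate 2. A single gene was lower without control replicates 2 or 3 or day 1 replicates 1, 2 or 4. Vwf, the clotting factor stored in endothelial cells (chromosome 6, 125546774 to 125686679), was at 15.3, 18.6, 34.8 and 11.05 CPM in controls and at 48.6, 59.7, 58.8 and 64.6 CPM on day 1, with no overlap (1.61 ± 0.27, adjusted p = 0.0166). Icam1, the adhesion molecule for leukocytes, rose from 1.38 to 2.60 CPM to 6.68 to 11.6 CPM (1.68 ± 0.20, adjusted p = 0.00194, 11.7% of exon bases shared). Adamts1, a secreted protease, rose by 0.86 ± 0.18 (adjusted p = 0.0469). Ptgds, the prostaglandin D synthase of meninges and oligodendrocytes, was at 144 to 532 CPM in controls and at 686 to 1019 CPM on day 1 (1.57 ± 0.34, adjusted p = 0.0551), and the endothelin receptor Ednrb fell by 0.69 ± 0.11 (adjusted p = 0.0160). The selectins Selp and Sele, which catch leukocytes from the blood, were listed at 0 in all 4 controls and stood at 0.766 to 4.85 and 0.258 to 2.43 CPM on day 1, below the filter.

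The markers of endothelial cells as a class did not move together, with 6 of 27 higher and 3 lower (median -0.06), or 1 lower without day 1 replicate 1, and 1 higher and 2 lower without the 3 libraries with choroid plexus RNA. Ly6a, a surface antigen of brain endothelium, was at 11.6 to 19.4 CPM in controls and at 28.8 to 48.5 CPM on day 1 (1.17 ± 0.18, adjusted p = 0.00922). Its relative Ly6c1 rose by 0.88 ± 0.18 (adjusted p = 0.0437). These members of the Ly6 family resemble each other in sequence. Mfsd2a, the lipid transporter of the barrier, rose from 11.8 to 22.2 CPM to 30.2 to 32.5 CPM (0.89 ± 0.17, adjusted p = 0.0332). The tight-junction gene Cldn5 had overlapping groups, at 47.3 to 96.6 CPM and at 38.9 to 85.9 CPM (-0.24 ± 0.27). Among 8 tested markers of mural cells 0 were higher and 1 was lower (median -0.26), with 3 lower without control replicate 1 and 2 lower without control replicates 2 or 4 or day 1 replicate 3.

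Microglial genes of the resting state were lower in part. Of 14 tested homeostatic markers, 0 were higher and 5 lower (3 after adjustment), with a median of -0.33, and the count was 4 to 6 when any single library was left out and 3 without the 3 libraries with choroid plexus RNA. A single marker was higher without control replicates 1 or 2. In bulk tissue, fewer cells of a type and less RNA per cell cannot be told apart. The summed level of the list overlapped between the groups, at 896 to 1209 CPM in controls and at 894 to 1050 CPM on day 1. Beside P2ry12, the lectin Siglech was at 5.87, 9.49, 6.65 and 7.08 CPM in controls and at 3.13, 3.23, 3.62 and 3.00 CPM on day 1 (-0.95 ± 0.15, adjusted p = 0.0146), with each septic mouse below each control. Fcrls, a scavenger receptor, fell by 0.78 ± 0.15 (adjusted p = 0.0287). Olfml3, a secreted protein, and Cx3cr1, the fractalkine receptor, were lower (-0.76 ± 0.20, adjusted p = 0.113, and -0.50 ± 0.14, adjusted p = 0.152), with control replicate 2 the highest library in both, and Cx3cr1 lost its call without day 1 replicates 1, 2 or 4. Tmem119 was not called (-0.42 ± 0.18). Of 12 tested genes of activated microglia, 2 were higher and 2 lower, against 2.44% and 2.31% of all tested genes. A single gene was higher without control replicates 3 or 4 or any day 1 library, and a single gene lower without control replicate 4 or day 1 replicates 1, 2 or 4. Trem2, a lipid-sensing receptor, fell from 7.42 to 11.1 CPM to 3.96 to 5.15 CPM (-0.79 ± 0.14, adjusted p = 0.0243), whereas the Fc receptor Fcgr3 rose from 6.09 to 14.8 CPM to 15.7 to 23.6 CPM (1.08 ± 0.22, adjusted p = 0.0450).

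Astrocyte markers were split, with 5 of 29 higher and 4 lower (median -0.13). With any single library left out 4 to 7 were higher and 3 to 6 lower, and without the 3 libraries with choroid plexus RNA 2 were higher and 1 lower. Aqp4, the water channel of astrocyte endfeet, was at 67.0, 77.5, 75.4 and 58.6 CPM in controls and at 41.4, 38.1, 35.8 and 37.0 CPM on day 1, with no overlap (-0.85 ± 0.11, adjusted p = 0.00251). Agt, the precursor of angiotensin, went the other way, from 34.9, 51.4, 28.0 and 34.3 CPM to 75.4, 105, 78.0 and 64.3 CPM (1.11 ± 0.19, adjusted p = 0.0176). The growth factor receptor Fgfr3 rose by 0.69 ± 0.14 (adjusted p = 0.0374, 13.9% of exon bases shared), and Fam107a, an actin-bundling protein induced by stress, by 0.75 ± 0.11 (adjusted p = 0.00762). Gfap, the filament of reactive astrocytes, was at 285 to 528 CPM in controls and at 403 to 441 CPM on day 1 and was not called (0.19 ± 0.16).

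Genes of myelin and oligodendrocytes made the largest group of decreases among the lists. Of 35 tested, 17 were lower and 1 higher (9 and 1 after adjustment), with a median of -0.48 against -0.02 over all tested genes. Control replicates 2 and 3 held the highest sums of the list, 7854 and 7711 CPM, against 4706 and 5462 CPM in the other controls and 4789 to 5747 CPM on day 1. Without control replicate 2 there were 16 lower (median -0.38), with any single library left out 13 to 18, and without the 3 libraries with choroid plexus RNA 9 were lower and 1 higher. Beside Opalin, Ugt8a and Lpar1, Gpr37, a receptor of maturing oligodendrocytes, fell from 73.3 to 92.5 CPM to 44.8 to 55.2 CPM (-0.70 ± 0.10, adjusted p = 0.00844). The myelin surface proteins Mog and Mag were called lower without passing the adjustment (-0.90 ± 0.22, adjusted p = 0.0917, and -0.60 ± 0.15, adjusted p = 0.0953).

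The decrease did not extend to the whole list. Mbp, which encodes the abundant myelin basic protein, was at 1622 to 2991 CPM in controls and at 1638 to 2284 CPM on day 1 (-0.11 ± 0.19), and its difference turned to 0.053 without control replicate 2. The lineage factors Sox10 (-0.31 ± 0.17), Olig2 (-0.37 ± 0.12) and Myrf (0.12 ± 0.16, with a change of sign to -0.0043 without day 1 replicate 3) had overlapping groups, and so did Gal3st1, the sulfotransferase that makes sulfatide (-0.58 ± 0.20). Hapln2, a link protein of the nodes of Ranvier, was the member that rose, from 12.1 to 19.5 CPM to 24.1 to 31.6 CPM (0.82 ± 0.14, adjusted p = 0.0180). Among 14 tested markers of oligodendrocyte precursors 1 was higher and 1 lower, against 2.44% and 2.31% of all tested genes. Without control replicate 2 there were 3 lower, without control replicate 4 or day 1 replicate 3 there were 2, and the higher call was lost without control replicates 1 or 3 or day 1 replicates 2 or 3. Pdgfra, the receptor that defines these cells, had overlapping groups at 32.9 to 46.2 and 41.3 to 47.7 CPM.

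Enzymes of cholesterol synthesis were lower in part. Of 22, all tested, 0 were higher and 11 lower (5 after adjustment), with a median of -0.42. The count was 13 without control replicate 2, 8 to 13 with any single library left out, and 5 without the 3 libraries with choroid plexus RNA. Hmgcs1, which makes HMG-CoA (chromosome 13, 119690379 to 119708260), was at 112, 125, 142 and 126 CPM in controls and at 77.6, 64.8, 79.7 and 69.2 CPM on day 1. All septic mice were below all controls (-0.79 ± 0.10, adjusted p = 0.00362), with 12.1% of exon bases shared with another gene. Further along the pathway, the isomerase Idi1 (-0.86 ± 0.11, adjusted p = 0.00250), the squalene epoxidase Sqle (-0.62 ± 0.10, adjusted p = 0.0166) and the methyl sterol oxidase Msmo1 (-0.89 ± 0.15, adjusted p = 0.0146) fell. Cyp51 and Dhcr7 were called without passing the adjustment (-0.50 ± 0.11, adjusted p = 0.0596, and -0.53 ± 0.11, adjusted p = 0.0557).

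Genes around this pathway moved less. Of 22 tested regulators, uptake and efflux genes, 1 was higher and 2 lower (median 0.02), or 5 lower without control replicate 2 and 1 lower without control replicate 1 or day 1 replicates 2 or 4. The higher call was lost without control replicates 3 or 4 or any day 1 library, and 2 were higher without control replicate 1. The sterol sensor Insig1 (-0.38 ± 0.15) and the cholesterol exporter Abca1 (0.44 ± 0.16) were not called. Of 22 genes of fatty acid synthesis and desaturation, 0 were higher and 4 lower (median -0.25), and 1 was lower without day 1 replicates 1 or 4 2 without day 1 replicate 2, and 0 without the 3 libraries with choroid plexus RNA.

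Genes of adult neurogenesis were lower in part. Of 22 tested, 0 were higher and 8 lower (4 after adjustment), with a median of -0.38 and 7 to 10 lower with any single library left out, and 6 without the 3 libraries with choroid plexus RNA. Nes, the filament of neural stem cells, was at 8.54, 14.1, 10.8 and 10.8 CPM in controls and at 5.06, 4.07, 5.19 and 5.78 CPM on day 1, without overlap (-0.99 ± 0.16, adjusted p = 0.0125). Tubb2b stood at 164, 220, 153 and 186 CPM in controls and at 89.1, 78.2, 99.1 and 82.6 CPM on day 1. Gap43, of growth cones, was called lower (-0.58 ± 0.13, adjusted p = 0.0596), and so was Hopx, a stem cell gene with 27.2% of its exon bases shared (-0.81 ± 0.21, adjusted p = 0.108). Fabp7, the fatty acid binding protein of radial glia, is outside the lists and was named after its values were seen. It was at 10.8, 14.2, 12.3 and 13.6 CPM in controls and at 4.32, 4.30, 3.51 and 4.36 CPM on day 1 (-1.42 ± 0.12, adjusted p = 0.000395). The marker of immature neurons Dcx had overlapping groups (-0.35 ± 0.24), as did the granule cell factors Prox1 (0.27 ± 0.23) and Neurod1 (0.25 ± 0.13). The proliferation genes Mki67 and Top2a were under 1 CPM in every library.

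Genes of mature neurons were called about as often as all tested genes, of which 2.44% were higher and 2.31% lower. The 42 genes of the glutamatergic postsynapse held 0 higher and 2 lower (median 0.01), the 35 of presynaptic release 1 and 1 (median -0.04), and the 28 of GABA synapses and interneurons 0 and 1 (median -0.02). Without control replicate 2 the postsynaptic list held 2 higher and the presynaptic list 0 higher and 2 lower. Both presynaptic calls were lost without control replicate 4 or day 1 replicates 1, 2 or 4, 2 presynaptic genes were lower without control replicate 3, and 1 gene of GABA synapses was higher without control replicate 4. Those that fell included Grm3, a metabotropic glutamate receptor of neurons and astrocytes, from 32.5 to 36.2 CPM to 18.2 to 23.4 CPM (-0.76 ± 0.10, adjusted p = 0.00309). The receptor subunits Grin3a for NMDA (-0.48 ± 0.12, adjusted p = 0.113) and Gabra2 for GABA (-0.66 ± 0.14, adjusted p = 0.0501) were called lower as well. Among 19 tested neuropeptides and growth factors, Ptn, the growth factor pleiotrophin, fell by 0.64 ± 0.13 (adjusted p = 0.0378).

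Of 31 tested immediate early and activity-regulated genes, 1 was higher and 2 lower (median -0.04), against 2.44% and 2.31% of all tested genes. Without control replicate 3 there were 2 higher and 4 lower, without control replicate 2 there were 2 higher, and 1 was lower without control replicate 4 or day 1 replicate 1. The lower genes were Fos, a transcription factor that follows neuronal firing, at 13.1, 14.2, 12.02 and 17.2 CPM in controls and 5.68, 9.13, 10.3 and 8.20 CPM on day 1 (-0.71 ± 0.17, adjusted p = 0.0875), and Arc, which acts at synapses (-0.54 ± 0.14, adjusted p = 0.114). The libraries did not overlap for Fos and overlapped for Arc, whose call was lost without control replicate 4 or day 1 replicate 1.

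The clock genes held 4 higher and 0 lower calls of 21 tested, 0 of them after adjustment (median 0.26). This count rested on single libraries, with 7 higher without control replicate 2, 2 without day 1 replicates 1, 2 or 4, and 1 without day 1 replicate 3. Ciart, a repressor within the clock, was at 4.36 to 7.03 CPM in controls and at 7.94 to 11.9 CPM on day 1 (0.72 ± 0.16, adjusted p = 0.0596). Per3 was at 38.3, 19.5, 38.6 and 38.8 CPM and at 50.9, 56.4, 54.0 and 45.3 CPM (0.65 ± 0.20, adjusted p = 0.196), with control replicate 2 far below the other controls. The call was lost without any of the 4 day 1 libraries, and without control replicate 2 the change was 0.41. The core activator Arntl (-0.17 ± 0.10) and the repressor Nr1d1 (0.11 ± 0.14) were not called. The hour at which each animal was killed was not used here.

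The remaining lists held small counts of calls, with shares on both sides of the 4.74% called over all tested genes. Counts this small moved by up to 3 genes with single libraries. Of 32 tested chaperones and stress genes of the endoplasmic reticulum 0 were higher and 3 lower (5 without control replicate 1, and 1 without control replicates 3 or 4 or day 1 replicate 1), and the chaperone Hspa5 had overlapping groups (-0.17 ± 0.13). Among 18 cytosolic heat shock genes 2 were higher and 2 lower (4 lower without control replicates 1 or 3, and 1 higher without control replicates 1 or 3 or day 1 replicates 1, 3 or 4), with the small heat shock protein Cryab falling from 86.5 to 159 CPM to 48.7 to 61.2 CPM (-0.92 ± 0.18, adjusted p = 0.0332, 17% of exon bases shared). The p53 list held 3 higher of 27, Cdkn1a among them, the metal and oxidative defence list 3 higher and 1 lower of 30, and the thyroid hormone list 1 and 1 of 10. In the metal list 1 was higher without control replicates 1 or 4 or day 1 replicate 4 and 2 were lower without control replicates 1 or 2 or day 1 replicate 2, and in the thyroid list 2 were lower without control replicate 4. Of 38 chromatin regulators 0 were called, with a median of 0.17. Meningeal and fibroblast markers held 1 higher and 1 lower of 12, and markers of neighbouring brain regions 1 higher of 11. The higher meningeal call was lost without control replicate 4 or day 1 replicates 1, 3 or 4, and that of neighbouring regions without control replicate 4 or day 1 replicates 1, 2 or 3. Nuclear genes of the respiratory chain held 0 higher and 2 lower of 76 (median -0.19), mitochondrially encoded genes 0 of 12 (median -0.29), and ribosomal protein genes 0 of 79 (median -0.22). Without control replicate 2, the library with the highest sums of these 3 lists, the medians were -0.11, 0.01 and -0.10. The lower calls of the respiratory chain were 4 without control replicate 1 and 1 without control replicate 4 or day 1 replicates 1 or 3, and 3 ribosomal protein genes were lower without control replicate 1.

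**Figure D4:**
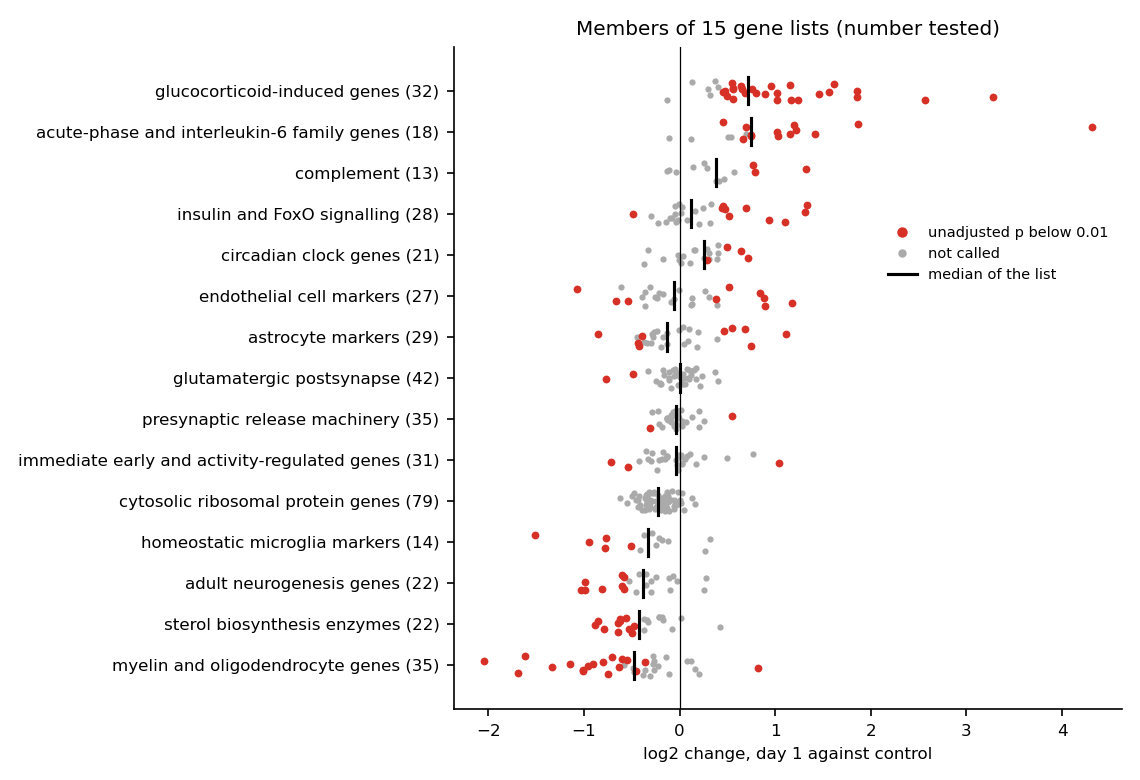
Log2 change on day 1 of each tested member of 15 gene lists, with the number tested in brackets, members with an unadjusted p below 0.01 in red, other members in grey and the median of each list as a black bar. Glucocorticoid-induced genes (26 of 32 higher) and acute-phase genes (13 of 18 higher) lie to the right of 0, and sterol enzymes (11 of 22 lower) and myelin genes (17 of 35 lower) to the left.

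The same comparison can be set beside those in young males and in old females of 18 to 22 months, which share no libraries with it. The question is whether the day 1 change of young females differs by sex or by age, and it was tested by the interaction, the change in young females minus that in the other group. With young males, 60 genes were called (0.516%), 30 in each direction, of which 0 passed the adjustment in limma, and 506 had an unadjusted p below 0.05. The unmoderated test called 99, and scaling by the median of ratios gave 96, of which 64 were positive and 32 negative. Of the 283 genes higher in young females, 270 (95.4%) also had a positive difference in young males, as did 66.5% of all tested genes on the higher side, and of the 268 lower genes 249 (92.9%) had a negative one, against 66.8%. The median change of the higher genes was 0.59 in young females, whose values chose them, and 0.43 in young males, and that of the lower genes -0.49 and -0.36.

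The sex interaction count was unstable. Among young females, leaving out control replicate 2 raised it to 265 and leaving out control replicate 1 to 134. Among young males, it was 143 with day 1 replicate 1 left out and 30 with day 1 replicate 3 left out. The largest positive interactions of named genes were those of Dbp, a clock output factor (0.78), Sh3bp1, a GTPase-activating protein (0.76), Plxdc1, an endothelial receptor (0.66), and Mthfd1l, of mitochondrial folate metabolism (0.63). Dbp changed by 0.31 in young females and by -0.47 in young males, and Mthfd1l by 0.59 and -0.04. Those with the largest negative interaction were Dcn, the matrix proteoglycan decorin (-0.73), and the chaperones Hsp90b1 (-0.68) and Pdia6 (-0.66), beside a predicted gene (Gm8355, -0.93). Dcn was at 48.2, 54.3, 55.5 and 64.0 CPM in young female controls and at 28.6, 28.9, 28.9 and 35.1 CPM on day 1 (-0.85 ± 0.11, adjusted p = 0.00297), against a change of -0.12 in young males. All of these interactions had an adjusted p of 0.995. Sh3bp1, Dbp and Hsp90b1 share 64.5%, 18% and 15.7% of their exon bases with other genes.

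With old females the interaction was called for 1034 genes (8.9%), 605 positive and 429 negative, and 446 passed the adjustment. Of the 283 higher genes of young females 270 (95.4%) also had a positive difference in old females, as did 66.7% of all genes on that side, and 256 of the 268 lower genes (95.5%) had a negative one, against 62.6%. The interaction was called for 54 of the 283 and 45 of the 268. Glucocorticoid-induced genes, a list that includes genes reported to rise in all these groups, had a median change of 0.72 in young females, 0.75 in young males and 1.38 in old females. The age interaction was called for 14 of the 32, each with the larger change in old females. That direction was the common one, held by 995 of the 1034 genes called. Cdkn1a changed by 2.57 in young and 4.01 in old females (interaction -1.44, adjusted p = 0.0360), and Mt2 by 0.65 and 2.18 (-1.53, adjusted p = 0.00371).

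Of the immediate early genes, 10 of 31 had an age interaction, and their median was -0.04 in young and 0.51 in old females. Fos went in opposite directions, by -0.71 in young and 0.97 in old females (-1.68, adjusted p = 0.0133). Ctgf, a matrix-associated growth factor without a record in the annotation used, changed by -0.09 and 1.35 (-1.45, adjusted p = 0.0624). On the positive side, Kctd21, an adaptor of a ubiquitin ligase, changed by -0.03 in young females and -2.06 in old ones (2.03, adjusted p = 0.000368), and Lct, the gene of lactase, by 0.35 and -1.63 (1.98, adjusted p = 0.0205). The nuclear RNA Neat1 changed by 0.55 and -1.13 (1.68, adjusted p = 0.108), and its call was lost without any of 11 of the 16 libraries, among them young female control replicate 2. Gm12940, with 71.8% of its exon bases shared, had an interaction of 1.73.

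**Figure D5:**
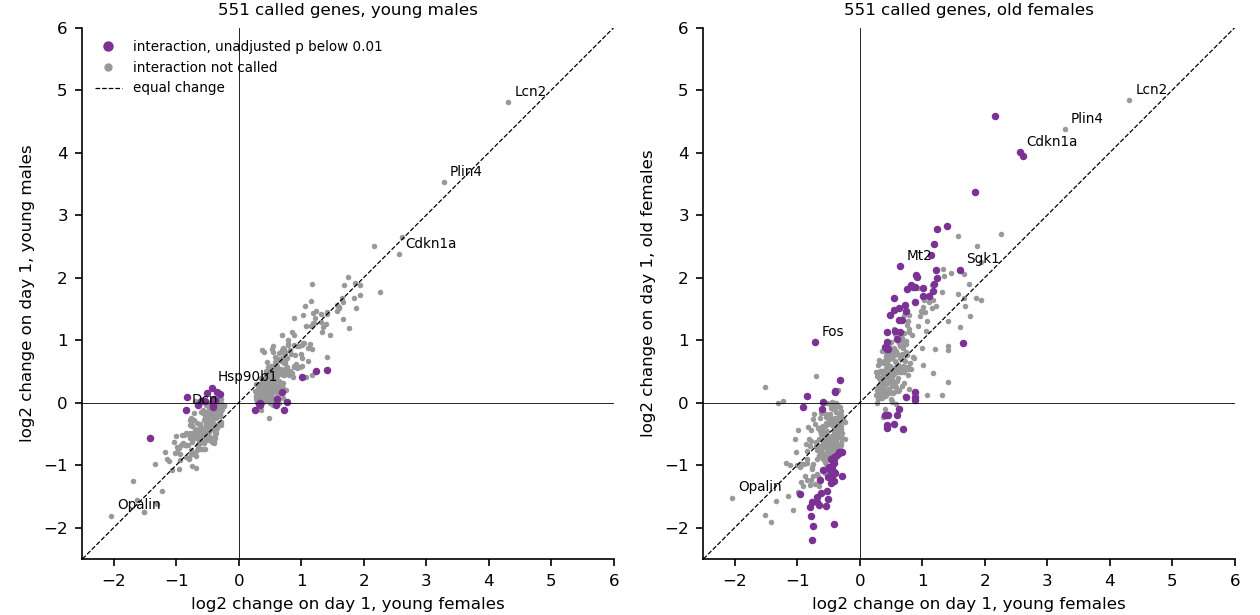
Log2 change on day 1 in young males (left) and in old females (right) of the 551 genes called in young females, against their change in young females, with genes whose interaction had an unadjusted p below 0.01 in purple and a dashed line where both changes are equal. Lcn2 changed by 4.31 in young females, 4.81 in young males and 4.84 in old females and Plin4 by 3.28, 3.53 and 4.38, so that Plin4 lies above the line in old females, and Fos falls in young females and has a positive value in old females.

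The young females taken on day 4 were compared with the same controls, so only levels are set side by side. They had more imipenem doses and more days of restraint than those of day 1. Differences between the days therefore cannot be tied to time after sepsis alone. On day 4, Lcn2 was at 3.24 to 8.14 CPM, above the controls (0 to 0.872) and below day 1 (21.5 to 32.3). Sgk1 was at 59.2 to 146 CPM and Fkbp5 at 80.9 to 104 CPM, and Socs3 at 1.68 to 3.19 CPM. The levels of Opalin were 9.73 to 12.8 CPM, between those of day 1 and the controls, and those of P2ry12 were 10.1 to 12.3 CPM. Vwf at 43.1 to 67.0 CPM, Fabp7 at 3.46 to 6.90 CPM and Nes at 4.85 to 7.07 CPM were in or near the range of day 1, whereas Siglech at 5.92 to 9.07 CPM and Itm2a at 14.7 to 17.6 CPM were in the range of the controls.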

How the data were processed

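Poly(A) RNA of whole hippocampi was sequenced on the Ion Proton. Per the study's methods, reads were trimmed, aligned to mm10 with STAR and counted per gene in Partek Flow (versions not given). The counting rule and strand setting are not given in the sources used here. CPM, scaled by the trimmed mean of M-values, were deposited by the authors for 28032 gene symbols, and 0 columns lacked a sample. The 8 columns sum to 784317 to 937374 CPM. Their low values lie on steps of 1 read, but 80.9% to 83.9% of values were within 0.05 of a whole read, too few to recover whole reads, and no count model was fitted.

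Genes averaging at least 5 CPM over the 8 libraries were tested on log2(CPM + 1) with limma 3.58.1 (moderated, variance trend, two-sided) in R 4.3.3, on the groups compared. A call is an unadjusted p below 0.01, the study's threshold, and Benjamini-Hochberg adjusted p-values cover all genes tested. The unmoderated alternative is a one-way analysis of variance on the genes tested here, which were filtered otherwise than in the study. Changes on this scale understate those of low genes. The scripts were tested on simulated data.

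Named genes are, among calls whose libraries do not overlap and that average at least 10 CPM, the 12 that rose most and the 12 that fell most, the 4 largest positive and 4 largest negative interactions with sex and with age at the same level, and members of fixed lists by their role. Some genes that fall under this rule are not reported here. The genes compared, the lists and the tests were chosen with earlier results of these data known. Several lists hold genes that the study had reported changed on day 1 in every age and sex group. Their counts are no independent support. Positions and exon overlaps are from GENCODE vM21 on GRCm38. Alternatives were other pseudocounts, filters, scaling, 1 fit of all 12 groups, an unmoderated test, a replicate block, a lowess correction (span 0.3) for GC content (known for 99.2% of tested genes) and leaving out libraries. The fit without the 3 libraries with over 500 CPM of choroid plexus markers was added after seeing the data.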

Additional observations from a re-analysis of the deposited data

Results flagged for a closer look

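In groups of 4 libraries, a library was marked where its distance to the nearest other took up most of the group's range. Chance marks about 1 in 20 such groups, and 13 of 274 sets were marked here. Control replicate 2 was the far library for Olfml3 (29.2 CPM, the others 14.1 to 16.4), Cx3cr1 (50.1 CPM against 32.2 to 34.3) and Per3 (19.5 CPM against 38.3 to 38.8). Control replicate 1 was far for Arrdc2 (15.7 CPM against 10.2 to 11.1), Dbp (22.3 CPM against 28.1 to 29.1) and Msmo1 (54.2 CPM against 71.4 to 74.5), and control replicate 3 for the choroid plexus gene Ttr (3053 CPM against 3.46 to 25.3). On day 1, replicate 4 was far for Dcn (35.1 CPM against 28.6 to 28.9), Arl4d (14.7 CPM against 20.4 to 21.5), Mag (103 CPM against 122 to 124) and Abca1 (43.8 CPM against 38.2 to 38.7), and replicate 3 for Fkbp5 (135 CPM against 117 to 120) and Fabp7 (3.51 CPM against 4.30 to 4.36).

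The interaction of young females with young males was called at an unadjusted p below 0.01, among others, for Dbp (0.78), Sh3bp1 (0.76), Plxdc1 (0.66), Mthfd1l (0.63), Gm8355 (-0.93), Dcn (-0.73), Hsp90b1 (-0.68) and Pdia6 (-0.66). Calls at this threshold were fewer than it gives where no gene differs, so a sex difference is not established for any of them. None of these 8 passed the Benjamini-Hochberg adjustment in limma (adjusted p of 0.995 for each). Plxdc1, Mthfd1l and Gm8355 lost the call without single libraries, and Dbp, Dcn and Plxdc1 with the correction for GC content. Between young and old females the change differed for Kctd21 (2.03), Lct (1.98), Gm12940 (1.73), Neat1 (1.68), Fos (-1.68), Mt2 (-1.53), Ctgf (-1.45) and Cdkn1a (-1.44), and all but Neat1 and Ctgf passed the adjustment.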

How the results depend on the processing

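The 551 calls became 976 with no filter on low values, 330 with a mean of at least 20 CPM, 1118 with all 12 groups in 1 fit and 192 without the 3 libraries with choroid plexus RNA. The 159 adjusted calls became 90 at 20 CPM, 71 with the unmoderated test, 723 with all 12 groups and 17 without those 3 libraries. The sex interaction count of 60 became 180 with no filter, 35 at 20 CPM, 99 unmoderated, 116 with all 12 groups and 96 under scaling by the median of ratios. The age interaction count of 1034 became 1617 with no filter, 570 at 20 CPM and 1671 with all 12 groups. The filters change how many genes are tested and the fit without 3 libraries has fewer samples. The cause of the other shifts was not tested. Leaving out single libraries gave 362 to 717 calls, 70 to 259 adjusted calls, 30 to 265 sex interaction calls and 758 to 1157 age interaction calls.

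Differences that changed sign were all uncalled. Without single libraries Mbp ran from -0.24 to 0.053 (positive without control replicate 2), Myrf from -0.0043 (without day 1 replicate 3) to 0.21 and Ttr from -0.66 (without day 1 replicate 4) to 3.13, with -0.0073 without control replicate 1. Ttr was also at -1.02 without the 3 libraries with choroid plexus RNA. Of 96 called genes followed, 89 kept their call without any single library and 0 changed sign. With a replicate block there were 531 calls, 134 adjusted, 66 sex interaction and 940 age interaction calls, but no source used here says what the replicate numbers stand for. Deviations of same-numbered libraries correlated at 0.28, 0.19, 0.027 and -0.095, against 0.57 for control replicate 3 with day 1 replicate 4. Low genes limit precision, since a pseudocount of 5 took the change of Lcn2 to 2.52.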
